A study of Mus musculus with 33 samples.

Results

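Il3, Csf2, Il4, Il5 and Il13 are cytokine genes that lie together on mouse chromosome 11, and their RNA was followed here in CD8 T cells sorted from the skin of mice with contact allergy. The 5 genes were chosen by name, with no measured value in the rule, and all 5 were among the 18054 gene rows of the first experiment and the 18052 of the second. Earlier results of these data were known when the genes were chosen, so counts of called members are a description. Il3 (interleukin 3), Csf2 (GM-CSF) and Il13 (interleukin 13) had enough reads to be tested in both experiments, and Il4 and Il5 did not. In annotation of the GRCm38 genome (GENCODE vM21), Il4 (ENSMUSG00000000869.12) spans chromosome 11 from 53602982 to 53618669 on the minus strand. Il13 (ENSMUSG00000020383.1) spans 53631324 to 53634702 on the minus strand, 12.7 kb from Il4. Il5 (ENSMUSG00000036117.2) spans 53720794 to 53725106 on the plus strand. After a gap of 522.2 kb, Csf2 (ENSMUSG00000018916.5) spans 54247271 to 54249667 and, 15.6 kb further, Il3 (ENSMUSG00000018914.5) spans 54265303 to 54267277, both on the minus strand. The 5 genes cover 664.3 kb from end to end.

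These cytokines are made by T cells and by cells of allergic inflammation. Interleukin 3 acts on basophils, mast cells and blood progenitors, GM-CSF on macrophages, neutrophils and dendritic cells, interleukin 5 on eosinophils, and interleukins 4 and 13 on B cells, macrophages and epithelium. The receptors for interleukin 3, interleukin 5 and GM-CSF share a common beta chain and signal through JAK2 and STAT5. Those for interleukins 4 and 13 share the interleukin 4 receptor alpha chain and signal through STAT6. In T cells, signalling through the T cell receptor (TCR) turns these genes on through factors such as NFAT, AP-1 and NF-kappaB.

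The study used a mouse model of allergic contact dermatitis to the hapten dinitrofluorobenzene (DNFB), in which CD8 T cells cause the inflammation, and asked how a topical treatment labelled TA (0.01%) acts on skin resident memory T cells (TRM). RNA was counted by CEL-seq2, a 3' tag method, in 33 libraries of sorted bulk cells. The first experiment held 17 libraries of live CD45+CD8+CD69+CD103+ TRM from DNFB-allergic Nur77GFP mice, in which GFP reports recent TCR signalling. These were GFP-negative cells at day 0, just before DNFB retest (3 acetone, 2 TA), GFP-negative and GFP-positive cells at day 1, 24 hours after it (2 acetone and 2 TA of each), and GFP-negative cells at day 6, 144 hours after it (2 acetone, 2 TA). The second held 16 libraries from C57BL/6 mice, 2 per group: 4 untreated CD8 subsets, split by CD69 and CD103, taken 2 days after DNFB challenge, and CD69+CD103+ TRM at days 11 and 42 with acetone or TA. Acetone is the control treatment beside TA, and all mice had been sensitized to DNFB.

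Column headers carried codes, so several sets keep neutral names. Arm I and arm II are the day 1 treatments with header codes 3 and 4, each with GFP-negative and GFP-positive cells. No source used here ties either code to acetone or TA, so the arms are compared without that. Sets K, L and M (codes 2, 5 and 6) are the day 0 TA and the day 6 sets in unknown order. Subsets U, V and W, in header order, are the other CD8 subsets at day 2, and late sets P, Q, R and S, in header order, are TRM at day 11 or day 42 with either treatment. Library totals ran from 2442825 to 8515297 counts in the first experiment, with 22.2 to 36.7% on mitochondrial transcripts, and from 2937814 to 13629838 in the second, with 12.8 to 21.3%. The 7 measured CD8 T cell markers were detected in every library, Cd8a at 450 CPM or more in the first experiment and 482 CPM or more in the second. Levels are CPM, counts scaled to a common library total, and are given library by library. Because tags come from the 3' end, counts were not divided by gene length, and levels of different genes are compared as numbers of reads. The labels tell replicates apart by letter without naming animals, so the p-values cover the spread among these samples, which may be technical. In bulk cells, fewer cells that express a gene and less RNA per cell cannot be told apart.

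The sequences before the start sites of the 3 genes with reads are shown because these genes went with GFP to different degrees. They are the 250 bases 5' of the start in RefSeq (GRCm38.p6), on the gene's own strand: chr11:54267280-54267529 for Il3, chr11:54249900-54250149 for Csf2 and chr11:53634703-53634952 for Il13, all minus. Capitals mark the core letters bound by NFAT, GGAAA, which reads TTTCC on the other strand.
Il3: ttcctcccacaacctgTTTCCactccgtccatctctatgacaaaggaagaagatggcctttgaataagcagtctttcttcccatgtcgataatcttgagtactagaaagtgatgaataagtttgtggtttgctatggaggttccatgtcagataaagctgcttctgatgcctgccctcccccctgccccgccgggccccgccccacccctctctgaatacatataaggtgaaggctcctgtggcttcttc
Csf2: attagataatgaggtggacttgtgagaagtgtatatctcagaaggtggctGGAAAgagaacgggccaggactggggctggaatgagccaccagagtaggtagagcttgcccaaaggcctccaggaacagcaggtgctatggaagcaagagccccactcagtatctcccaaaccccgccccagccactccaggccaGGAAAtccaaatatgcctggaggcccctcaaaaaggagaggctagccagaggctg
Il13: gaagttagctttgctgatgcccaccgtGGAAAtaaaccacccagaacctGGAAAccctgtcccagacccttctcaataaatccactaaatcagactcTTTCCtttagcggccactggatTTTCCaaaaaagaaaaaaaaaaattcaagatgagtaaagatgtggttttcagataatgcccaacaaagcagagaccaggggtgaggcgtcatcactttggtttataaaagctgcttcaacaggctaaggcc
The RefSeq start of Csf2 lies 232 bases from the GENCODE start, and those of Il3 and Il13 lie 2 and 0 bases from it. An annotated antisense gene, Gm12223, overlaps Csf2 over 2068 bases, and Gm12214 overlaps Il5 over 666 bases. Whether strand was used in counting is stated in no source used here, so reads of these overlapping genes cannot be told apart.

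Motifs were searched on both strands of the window from 250 bases before to 50 bases after the start, for all 5 genes and for 32851 RefSeq windows of the same length. GGAAA occurred 4 times in the Il13 window, 3 times in that of Csf2, 2 times in that of Il5 and 1 time in that of Il3. The Il4 window at its annotated start held 5 and a second Il4 window held 1. Of all windows, 61.3% held at least 1 match, 9.42% at least 3, 2.65% at least 4 and 0.728% at least 5. The GATA letters GATAA occurred 2 times before Il3 (5.27% of all windows held at least 2) and 1 time each in the Csf2 and Il13 windows and in the Il4 window at its annotated start (25.4% held at least 1). The RUNX letters TGTGGT occurred 1 time each before Il3 and Il13 (16.8% of all windows). The AP-1 letters TGANTCA (7.81% of all windows), the letters TGTTCT of 1 side of the glucocorticoid receptor site (19%) and the full glucocorticoid receptor site, which contains them (0.00913%), were in none of the 5 genes' windows. These matches are letters in a short window and say nothing of binding.

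Setting GFP-positive against GFP-negative TRM on day 1 asked which cytokine genes of the cluster accompany recent TCR signalling. All 3 tested genes were higher in GFP-positive cells in both arms, and Il3 reached levels far above the others in arm I. Nr4a1, the gene behind the Nur77 reporter, describes the sort: it stood at 3317 to 4433 CPM in the GFP-positive and 814 to 1343 CPM in the GFP-negative libraries. Il3 stood at 5009 and 5270 CPM in the GFP-positive libraries of arm I and at 10.3 and 16.5 CPM in the GFP-negative ones. It was at 174 and 185 CPM against 15.6 and 12.3 CPM in arm II. GFP-positive and GFP-negative libraries did not overlap in either arm, nor did the arms overlap in GFP-positive cells. The share of all genes that separate in these ways was not counted. By reads, Il3 ranked 25 among all genes in both GFP-positive libraries of arm I, 588 and 541 in those of arm II, and between 3301 and 5287 in the other libraries of the first experiment.

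Averaged over both arms (4 libraries against 4), the log2 difference of Il3 was 6.27 ± 0.18 (SE; adjusted p = 4.29e-15 by edgeR), the fourth smallest p of 11588 genes. Csf2 was higher by 4.26 ± 0.64 (adjusted p = 1.13e-04) and Il13 by 3.13 ± 0.31 (adjusted p = 8.10e-07). So 3 of 3 members were called (adjusted p under 0.05), where 12.1% of all genes tested were. Within arm I all 3 were called (5.36% of all genes), with log2 differences of 8.75 ± 0.28 for Il3, 4.83 ± 0.88 for Csf2 and 2.58 ± 0.39 for Il13. Within arm II all 3 were called (8.07% of all genes), with 3.79 ± 0.25, 3.68 ± 0.95 and 3.69 ± 0.50. In arm I the difference for Il3 was far larger than those for the other genes, while in arm II the 3 values lay within 1 SE of each other. The Csf2 call in arm II (adjusted p = 0.0195) rested on single libraries. It was lost without GFP-negative library A (adjusted p = 0.109) or B (0.0623), or GFP-positive library B (0.106), and the adjusted p over all 9 alternatives ran from 0.00154 to 0.109. Without GFP-negative library A of arm II, the Il13 difference was 5.53 there and 4.08 over both arms, and without GFP-negative library B it was 2.92 in arm II. Without GFP-negative library B of arm I, the Csf2 difference was 6.57 in that arm and 5.12 over both, and without its library A it was 4.12 in that arm.

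Lists of markers of other cells moved with the GFP sort in part. The mast cell and basophil list (6 markers measured) summed to 2.54 to 8.46 CPM in the GFP-positive arm I cells and 0.747 to 6.13 CPM in those of arm II, against 0.148 to 2.39 and 0 CPM in the GFP-negative cells of arms I and II. Of its genes, Kit stood at 0.318 to 3.05 CPM and Hdc at 0.373 to 5.29 CPM over the GFP-positive libraries, against 0 and at most 1.10 CPM in the GFP-negative ones, while Mcpt4 and Gata2 were at 0 in every GFP-positive library. Il1rl1, the receptor for interleukin 33 and a marker of group 2 innate lymphoid cells (ILC2), stood at 7.87 and 15.4 CPM in the GFP-positive libraries of arm I, 2.99 and 5.52 CPM in those of arm II and at most 0.397 CPM in GFP-negative cells. The whole ILC2 list (11 markers measured) summed to 1478 to 1611 CPM in the GFP-positive libraries of arm I, 1105 to 1107 CPM in those of arm II, 1188 to 1317 CPM in GFP-negative cells of arm I and 715 to 838 CPM in those of arm II, and 2 of its 8 tested genes were called higher in GFP-positive cells and 0 lower. These were Il1rl1 and Areg, the growth factor amphiregulin, at 459 and 490 CPM against 71.9 and 77.1 CPM in arm I and 176 and 182 CPM against 27.8 and 37.3 CPM in arm II. Arg1 stood at 8.22 and 9.22 CPM in the GFP-positive libraries of arm I and at 0 in the other day 1 sets, and Il17rb and Il9r were at 0 in all 8 libraries. The CD4 and regulatory T cell list (9 markers measured) summed in arm I to 220 to 238 CPM in GFP-positive and 88.4 to 95.5 CPM in GFP-negative cells. In arm II the sums were 136 to 174 and 127 to 128 CPM. Of its 7 tested genes 2 were called higher in GFP-positive cells, Tnfrsf4 (2.48 ± 0.36) and Cd40lg (1.56 ± 0.38), which T cells also raise on activation, and 0 lower, with Cd4 at 0 in all 8 libraries. The 7 CD8 T cell markers summed in arm I to 2029 to 2172 CPM in GFP-positive and 4219 to 4258 CPM in GFP-negative cells. In arm II their sums were 2824 to 2842 and 2974 to 3261 CPM. Over both arms 0 of the 7 were called higher in GFP-positive cells and 3 lower, where 5.59% of all genes were higher and 6.51% lower. The part of other cells in the cytokine differences was not tested.

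**Figure D1:**
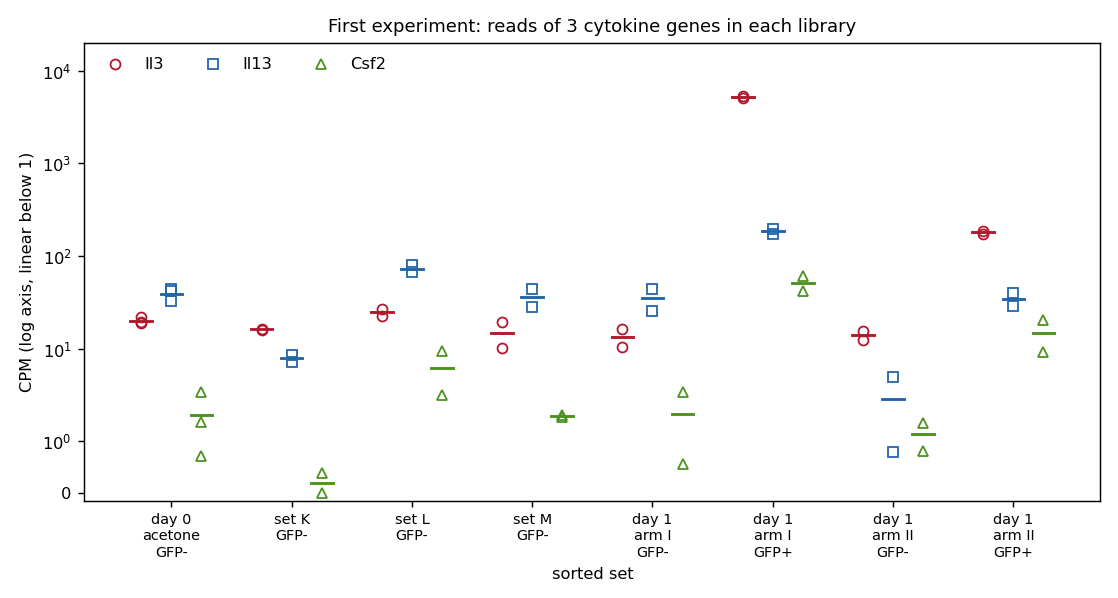
CPM of Il3 (circles), Il13 (squares) and Csf2 (triangles) in each library of the first experiment, on a log axis that is linear below 1, by sorted set; horizontal bars are means. Il3 stands at 5009 and 5270 CPM in the GFP-positive arm I cells and between 10.1 and 27.0 CPM in every GFP-negative library.

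The size of the Il3 difference itself differed between arms. Taken as arm II minus arm I, the change in the GFP difference was -4.96 ± 0.33 on the log2 scale for Il3 (adjusted p = 7.26e-08), the smallest p of all genes in that comparison. For Csf2 the difference between arms was -1.15 ± 1.27 (adjusted p = 0.795) and for Il13 it was 1.11 ± 0.63 (adjusted p = 0.516). So 1 of 3 members was called, against 0.889% of all genes. The Nr4a1 difference between arms was -0.70 ± 0.26 and did not pass (adjusted p = 0.273). The arms also differed in depth, at 5440609 to 8515297 counts per library in arm I and 2442825 to 3262545 in arm II, and in mitochondrial share, at 22.4 to 28.6% and 29.3 to 36.7%. With mitochondrial transcripts left out, the Il3 value was -4.96. The part of depth in it was not tested.

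Comparing the arms within each GFP state asked what the treatment goes with at day 1, without saying which arm is TA. In GFP-positive cells Il3 was lower in arm II (log2 difference -4.95 ± 0.24, adjusted p = 1.35e-10), again the smallest p of all genes tested. Il13 was lower too (-2.54 ± 0.39, adjusted p = 5.34e-04), at 39.9 and 28.7 CPM in arm II and 174 and 194 CPM in arm I. Csf2 stood at 9.20 and 20.2 CPM in arm II and at 61.0 and 41.8 CPM in arm I, and its difference of -1.91 ± 0.77 did not pass (adjusted p = 0.224). So 2 of 3 members were called, against 3.17% of all genes.

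In GFP-negative cells the pattern was another. Il13 was at 4.91 and 0.794 CPM in arm II, 12 and 2 reads, and at 25.2 and 44.4 CPM in arm I, 137 and 299 reads. It was lower in arm II, with a log2 difference of -3.65 ± 0.49 (adjusted p = 6.21e-05), which was -5.47 without GFP-negative library A of arm II and -2.87 without library B. Il3 differed by 0.005 ± 0.251 (adjusted p = 1) between the same libraries, and Csf2 stood at 0.819 and 1.59 CPM against 0.551 and 3.41 CPM (difference -0.76 ± 0.98, adjusted p = 0.72). So 1 of 3 members was called, against 6.69% of all genes. Of the CD4 and regulatory T cell list, 1 of 7 tested genes was called higher in arm II, Ctla4 (30.7 and 36.9 against 5.88 and 7.86 CPM), and 0 lower. Its other members went both ways without passing: Foxp3 was at 0 and 19.9 CPM in arm II and at 0 in arm I, while Ikzf2 (0.409 to 1.99 against 7.42 to 10.5 CPM), Tnfrsf4 (9.41 to 13.5 against 20.6 to 25.8 CPM) and Cd40lg (2.78 to 5.73 against 7.17 to 11.4 CPM) had lower values in arm II. Cd4 was at 0 in all 4. Of the ILC2 list, 0 of 8 were higher and 2 lower in arm II, where 1.98% of all genes were higher and 4.7% lower. Of the 7 CD8 T cell markers, 0 were higher and 3 lower in arm II. They summed to 2974 to 3261 CPM in arm II and 4219 to 4258 CPM in arm I. The part of any of these in the Il13 difference was not tested.

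Set against day 0 acetone cells, the TRM before retest, GFP-positive cells at day 1 were higher for all 3 genes. Day 0 acetone libraries held Il3 at 18.9, 21.8 and 19.5 CPM, Il13 at 44.0, 32.4 and 41.6 CPM and Csf2 at 1.63, 0.716 and 3.44 CPM. The log2 differences of GFP-positive cells over both arms (4 libraries against 3) were 5.88 ± 0.20 for Il3, 4.22 ± 0.70 for Csf2 and 1.34 ± 0.29 for Il13. All 3 were called, against 25.6% of all genes. The value for Il13 was the smallest of the 3. Its GFP-positive level in arm II, 39.9 and 28.7 CPM, overlapped that of day 0 acetone, while its GFP-negative level in arm II was below it.

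GFP-negative cells at day 1 were lower than day 0 acetone for Il13, with a log2 difference of -1.80 ± 0.33 (adjusted p = 1.52e-03), or -2.72 without GFP-negative library A of arm II. Il3 differed by -0.39 ± 0.18 (adjusted p = 0.218) and Csf2 by -0.04 ± 0.71 (adjusted p = 0.997). That is 1 of 3 members called, against 7.02% of all genes. The arms were then set apart, a choice made after values were seen. In arm I 0 of the 3 were called by edgeR or DESeq2 (edgeR: 3.94% of all genes; 0 at an unadjusted p under 0.05), and Il13 differed by 0.03 ± 0.34. In arm II Il13 was lower (-3.62 ± 0.48, adjusted p = 4.31e-05; -5.46 without library A and -2.85 without library B), and it was the 1 of 3 members called (8.63% of all genes).

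**Figure D2:**
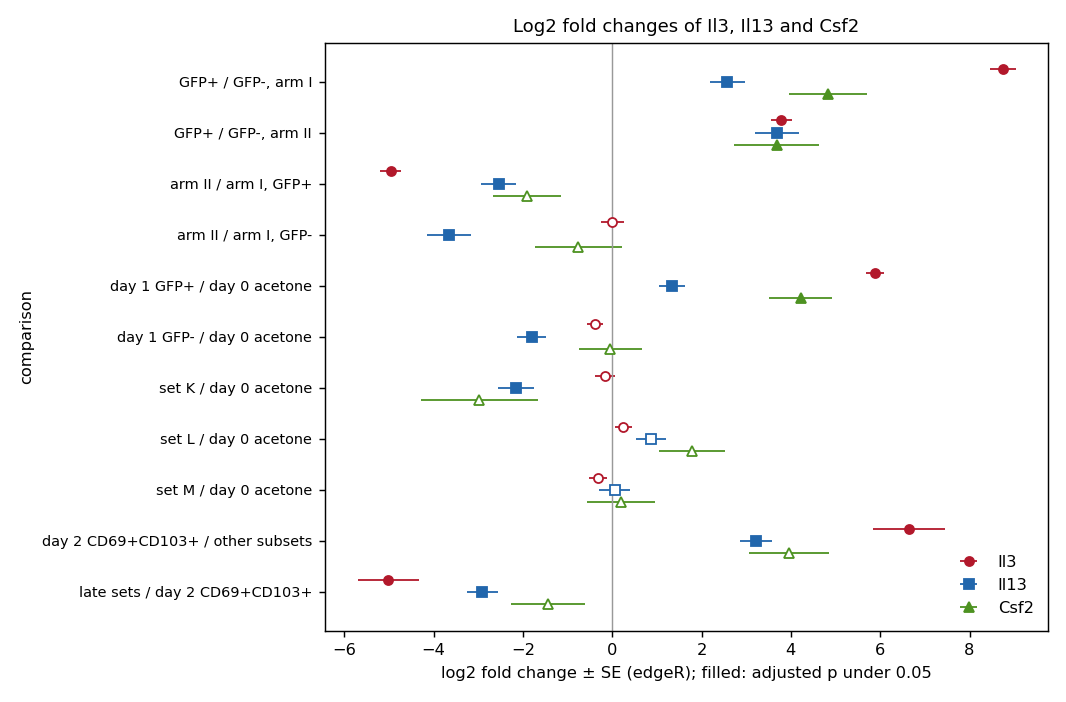
Log2 fold change (x axis) with its SE for Il3, Il13 and Csf2 in 11 comparisons (y axis); filled symbols passed an adjusted p of 0.05 by edgeR. Between the arms in GFP-negative cells Il3 stands at 0.005 and Il13 at -3.65.

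Among the other GFP-negative sets, Il13 was low in set K. It stood at 8.59 and 7.11 CPM there, 22 and 21 reads, and was lower than in day 0 acetone cells by edgeR (log2 difference -2.16 ± 0.41, adjusted p = 3.11e-03). It stood at 66.8 and 79.3 CPM in set L, the highest of all GFP-negative libraries, and at 44.0 and 28.1 CPM in set M. Csf2 followed the same order at far lower counts, with 1 and 0 reads in set K, 69 and 14 in set L and 14 and 14 in set M. Il3 stood at 16.4 and 15.9 CPM in set K, 22.5 and 27.0 CPM in set L and 10.1 and 19.5 CPM in set M. Against day 0 acetone, 1 of 3 members was called in set K (3.53% of all genes), 0 in set L (0.897%) and 0 in set M (4.56%). At an unadjusted p under 0.05 by edgeR the count was 2 in set L and 0 in set M, and DESeq2 also called 0 in each. The Il13 difference was 0.87 ± 0.33 in set L (adjusted p = 0.376) and 0.05 ± 0.34 in set M (adjusted p = 0.981).

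Pairs of these sets were compared after values were seen. Il13 was higher in set L than in set K by 3.03 ± 0.43 log2 units (adjusted p = 1.20e-04) and in set M than in set K by 2.21 ± 0.42 (adjusted p = 1.86e-03). Csf2, with 83 reads in set L and 1 in set K, had a ratio of pooled CPM of 38.7 (exact 95% counting interval 6.76 to 1550). Its call against set K (adjusted p = 0.0244) was lost without library A (0.0664) or B (0.205) of set K or library A of set L (0.187), and the adjusted p over all 9 alternatives ran from 0.00189 to 0.205. So 2 of 3 members were called between L and K (5.71% of all genes) and 1 of 3 between M and K (8.88%). The sets with the lowest Il13, set K and the GFP-negative cells of arm II, also had the highest mitochondrial shares of the first experiment, 34.9 to 36.3% and 35.8 to 36.7%. Their totals were 2442825 to 2952120 counts, while those of the other GFP-negative sets were 3488476 to 7708896. With mitochondrial transcripts left out, the log2 difference of Il13 was -2.15 in set K and -3.62 in the GFP-negative cells of arm II, both called. The part of RNA quality was not tested.

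Il3 spanned a narrower range than Il13 over the GFP-negative libraries. The 13 counts, 31 to 166 reads or 10.1 to 27.0 CPM, came each to 0.0409 to 0.219% of the 75808 Il3 reads in the GFP-positive libraries of arm I. Il13 ranged from 0.794 to 79.3 CPM over the same 13 libraries. Libraries of this protocol carry barcodes and are pooled before amplification. Whether reads crossed between barcodes was not tested, so low Il3 levels in GFP-negative cells are given as reads and not as expression.

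**Figure D3:**
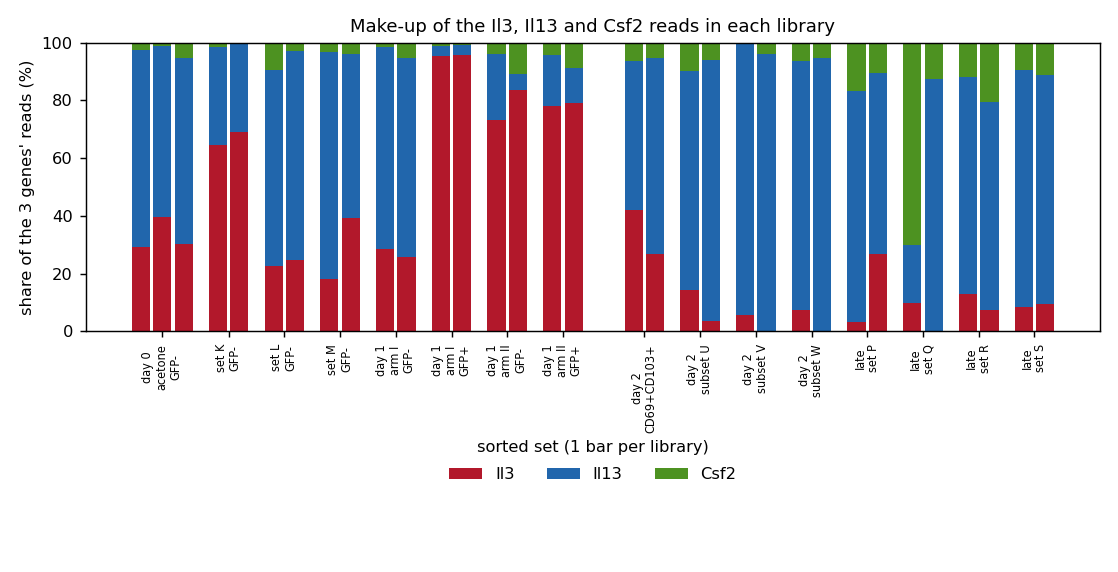
Share (%) of the summed Il3, Il13 and Csf2 reads that falls to each gene, 1 bar per library, by sorted set of both experiments. Il3 takes 95.5 and 95.7% in the GFP-positive arm I cells and at most 41.9% in the second experiment.

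The make-up of the 3 genes' reads shifted with the sort. Il3 took 95.5% of them in GFP-positive library A of arm I (exact binomial 95% interval 95.3 to 95.7%, counting error only) and 95.7% in library B. In arm II it took 78.0 and 79.1% of the reads in GFP-positive cells. In day 0 acetone cells Il13 led instead, with 59.0 to 68.1% of the reads, and Il3 took 29.3 to 39.7%. Il3 again led where Il13 was low. It took 64.6 and 69.1% of 65 and 68 reads in set K. In GFP-negative cells of arm II it took 73.1 and 83.8% of 52 and 37 reads. These counts are small, and the 95% interval of the last share was 68.0 to 93.8%. The limit on low Il3 reads in GFP-negative cells holds for these shares too. Il13 was the most counted of the 3 in 9 of the 17 libraries of the first experiment and in 15 of the 16 of the second. Csf2 took 10.8% or less of the 3 genes' reads in every library of the first experiment.

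In the second experiment, the comparison of CD69+CD103+ cells with the other CD8 subsets at day 2 asked whether these cytokines mark the resident subset. Il3 and Il13 were higher in CD69+CD103+ cells than in the mean of the other subsets, and Csf2 did not pass. Against subset U alone, 0 of the 3 genes were called. Il3 stood at 76.1 and 42.8 CPM in CD69+CD103+ cells, at 10.6 and 2.99 CPM in subset U, at 0.104 and 0 CPM in subset V and at 0.587 and 0 CPM in subset W. Il13 stood at 94.3 and 108 CPM, against 56.4 and 72.1 in U, 1.77 and 5.42 in V and 6.97 and 6.01 in W. Csf2 stood at 11.3 and 8.6 CPM, against 7.39 and 4.68 in U, 0 and 0.226 in V and 0.514 and 0.334 in W. For each gene both CD69+CD103+ libraries were above all 6 others, with subset U next and V and W below it. How many of all genes separate in this way was not counted. In this experiment 3 reads are worth 0.220 to 1.02 CPM, so Il3, with 1 and 0 reads, was below that floor in V.

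Against the mean of the 3 other subsets (2 libraries against 6), Il3 was higher by 6.64 ± 0.80 log2 units (adjusted p = 3.18e-04) and Il13 by 3.22 ± 0.36 (adjusted p = 1.29e-04). Csf2 was at 3.97 ± 0.90 (adjusted p = 0.0757). So 2 of 3 members were called, where 0.368% of all genes were. DESeq2 called Csf2 as well (adjusted p = 0.00308), and so did edgeR with no low-count filter (0.0107), while over all 12 alternatives its adjusted p ran from 0.00308 to 0.52. Il3 moved to 8.07 without library 1 of subset W and to 7.36 without library 1 of subset V. The mast cell and basophil list, with 9 markers measured, summed to 14.7 and 24.0 CPM in CD69+CD103+ cells and to 5.93 to 14.5 CPM in the other subsets. Of its genes Kit made up 13.4 to 21.6 CPM in the CD69+CD103+ libraries, and the mast cell protease genes Cpa3, Mcpt4, Cma1 and Tpsb2 were at 0 in both. Foxp3 was at 13.2 and 27.4 CPM in them and at 0.624 to 20.9 CPM in the other subsets, with Cd4 at 0 in the CD69+CD103+ libraries. The CD4 and regulatory T cell list summed to 860 to 946 CPM in CD69+CD103+ cells and 746 to 1012 CPM in the other subsets, and the ILC2 list to 2683 to 2919 and 2189 to 3857 CPM, with 1 tested gene of each list called higher. The part of such cells in these differences was not tested.

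Each subset was then compared alone, after values were seen. Against subset U, 0 of the 3 genes were called by edgeR or DESeq2 (edgeR: 0.237% of all genes; 1 of 3, Il3, at an unadjusted p under 0.05), with log2 differences of 3.17 ± 1.02 for Il3, 0.73 ± 0.47 for Il13 and 0.77 ± 1.14 for Csf2. Against subset V, Il3 and Il13 were called (2 of 3; 0.417% of all genes). Il3 had 1366 reads in CD69+CD103+ cells and 1 in subset V, a ratio of pooled CPM of 837 (exact 95% counting interval 150 to 33100). Csf2, with 228 reads against 1, had a ratio of 140 (24.8 to 5540) and did not pass by edgeR (adjusted p = 0.0864). DESeq2 called Csf2 (adjusted p = 0.00238), as did edgeR with no low-count filter (0.0208). It was not called with other size factors or with mitochondrial transcripts left out. Il13 was higher there by 4.98 ± 0.57 (4.35 and 5.88 without library 1 or 2 of subset V). Against subset W, Il3 and Il13 were called (2 of 3; 0.27% of all genes), Il13 by 3.95 ± 0.53 and Il3 by 7.28 ± 1.26. The Il3 call was lost against V without library 2 of V (adjusted p = 0.0634), and against W without CD69+CD103+ library 1 (0.148) or library 2 of W (0.123). Over the alternatives with an adjusted p, it ran up to 0.0634 against V and up to 0.148 against W.

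**Figure D4:**
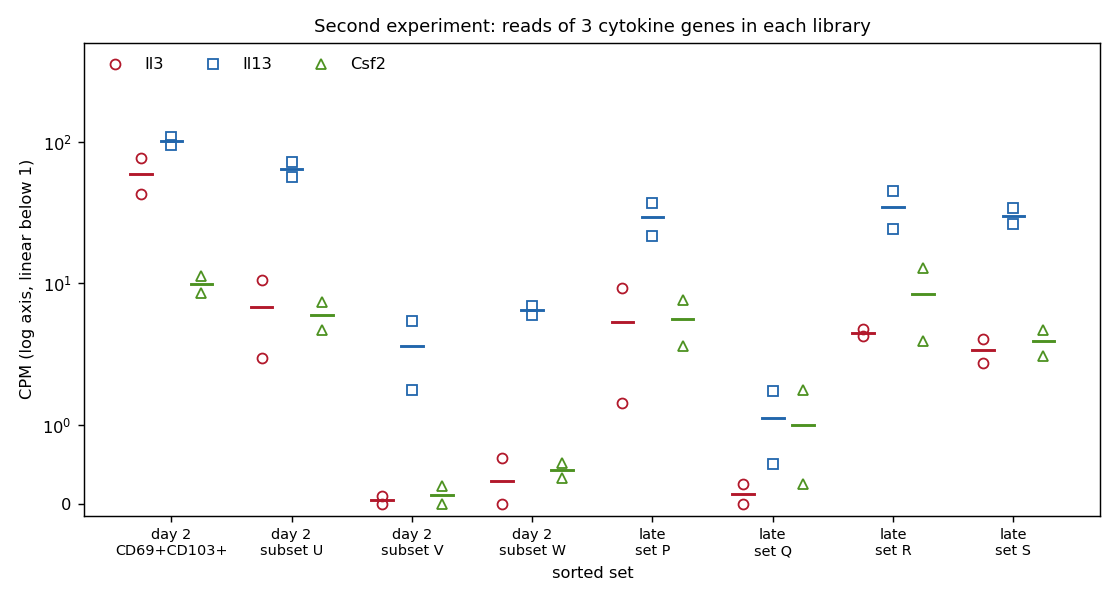
CPM of Il3 (circles), Il13 (squares) and Csf2 (triangles) in each library of the second experiment, on a log axis that is linear below 1, by sorted set; horizontal bars are means. Day 2 CD69+CD103+ cells are highest for Il3 and Il13, and subsets V and W and late set Q hold the lowest Il13 values.

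The comparison of later TRM with day 2 CD69+CD103+ cells asked what remains of this RNA at days 11 and 42. Il3 and Il13 were lower in the 8 late libraries, and Csf2 did not pass. Il3 ran from 0 to 9.31 CPM in the late sets and was lower (log2 difference -5.01 ± 0.69, adjusted p = 8.81e-05; -5.77 without library 1 of set Q). Il13 ran from 0.505 to 45.2 CPM and was lower (-2.90 ± 0.34, adjusted p = 1.43e-05). All 8 late libraries lay below both day 2 libraries for either gene, and the share of all genes that do so was not counted. Csf2 ran from 0.247 to 12.9 CPM, overlapping the day 2 libraries, and its difference of -1.43 ± 0.82 did not pass (adjusted p = 0.362). So 2 of 3 members were called, against 8.21% of all genes. Markers of other cells moved as well: of 8 tested genes of the CD4 and regulatory T cell list 1 was higher and 4 lower in the late sets, its sum was 860 to 946 CPM at day 2 and 189 to 448 CPM late, and Foxp3 stood at 13.2 and 27.4 CPM and at most 0.300 CPM. Of 9 tested ILC2 genes 1 was higher and 2 lower, with sums of 2683 to 2919 CPM at day 2 and 2304 to 4750 CPM late. Their part in the result was not tested. Nr4a1 was higher in the late libraries by 1.63 ± 0.16 log2 units, at 343 to 1098 CPM against 205 and 247 CPM at day 2.

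The late sets were not alike. Il13 was at 36.9 and 21.6 CPM in set P, 24.3 and 45.2 in set R and 26.2 and 34.0 in set S, but at 0.505 and 1.73 CPM, 2 and 7 reads, in set Q. Comparisons of set Q with the other late sets were added after values were seen. Il13 was lower in Q than in P (log2 difference -4.57 ± 0.63, adjusted p = 2.62e-03), and it was higher in R than in Q by 4.85 ± 0.63 (3.88e-04) and in S than in Q by 4.56 ± 0.63 (5.34e-04). Without library 1 or 2 of set Q these sizes lay between 3.97 and 5.94. In each, 1 of 3 members was called, against 0.858% of all genes for P, 1.02% for R and 1.06% for S. Il3 had 1 read in set Q and 40, 56 and 38 reads in P, R and S, and its ratios of pooled CPM over Q were 33.5 (exact 95% counting interval 5.67 to 1350), 36.2 (6.23 to 1450) and 29.4 (4.97 to 1190). Il3 did not pass in the 3 pairs by edgeR with its filter (adjusted p = 0.122, 0.140 and 0.197), and passed with no low-count filter (0.0065, 0.0103 and 0.0318) and, against P, without library 1 of P (0.0414). The largest adjusted p over the alternatives was 0.619, 0.373 and 0.445.

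Set Q also held markers of other cells. There, mast cell and basophil markers summed to 58.8 CPM in library 1 and 33.3 CPM in library 2, with 6 and 7 of 9 detected, against 0.300 to 11.6 CPM in the other late sets. Cpa3, at 6.91 and 14.7 CPM, Mcpt4, at 8.84 and 11.9 CPM, Cma1 and Tpsb2 were at 0 in sets P, R and S. The set with these markers held the least Il13 of the late sets. The ILC2 list summed to 4304 to 4750 CPM in set Q, of which Icos made up 4110 to 4495, and to 2304 to 3538 CPM in the others. Its gene Areg was lower in set Q, at 107 to 121 against 150 to 281 CPM. The CD4 and regulatory T cell list summed to 432 to 448 CPM in set Q, of which Ctla4 made up 296 to 330, and to 189 to 364 CPM in the others. Cd4 and Foxp3 were at 0 in set Q. Nr4a1 stood at 343 and 419 CPM in set Q and at 629 to 1098 CPM in the other late sets. Its mitochondrial share was 19.7 and 21.3%, next to 14.1 to 20.5% in the others. The 7 CD8 T cell markers summed to 4373 and 4767 CPM in set Q and to 5194 to 6651 CPM in the others. The part of any of these in the Il13 difference was not tested.

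Il4 and Il5 were close to the limit of detection everywhere. Il4 had 1 read in each of the day 0 acetone libraries and 1 in a GFP-positive library of arm I, and no read in the other libraries of the first experiment. In the second it had 2 and 2 reads in set R and 3 in 1 library of set S. Il5 had 8 and 1 reads in the GFP-positive libraries of arm I, 0.940 and 0.159 CPM, and 1 in set M. In the second experiment it had 1 and 3 reads in day 2 CD69+CD103+ cells and none elsewhere. In the first experiment, 3 reads are worth 0.352 to 1.23 CPM by library, so a level below this can leave a library with few reads or none. Neither gene was tested, and fitted with no filter neither was called between GFP states (adjusted p = 1 for both).

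The neighbouring genes were counted beside the members. Of the 56 genes annotated within 500 kb of the outermost members, other than the 5, 23 were measured in the first experiment and 14 tested. In the mean GFP comparison 0 of the 14 were higher and 2 lower, where 5.59% of all genes were higher and 6.51% lower, with a median log2 difference of -0.24 beside -0.03 over all genes tested. Those lower were Sept8, which encodes a septin (-2.23 ± 0.29, -748 kb from the Il3 start, the sign marking lower coordinates), and Irf1, an interferon response factor between Il5 and Csf2 (-0.80 ± 0.22, -497.3 kb from it). Rad50, named outside the rule as a DNA repair gene that carries known control elements of the Il4, Il5 and Il13 group, was at -0.31 ± 0.39 (adjusted p = 0.706). The gene 4933405E24Rik, -54.0 kb from the Il3 start and named because of its value, was at 5.56 ± 2.02 and did not pass (adjusted p = 0.085). At day 2, 0 of 17 tested neighbours were called by edgeR between CD69+CD103+ cells and the other subsets (0 at an unadjusted p under 0.05). With 14 genes tested, these counts are near the shares over all genes.

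**Figure D5:**
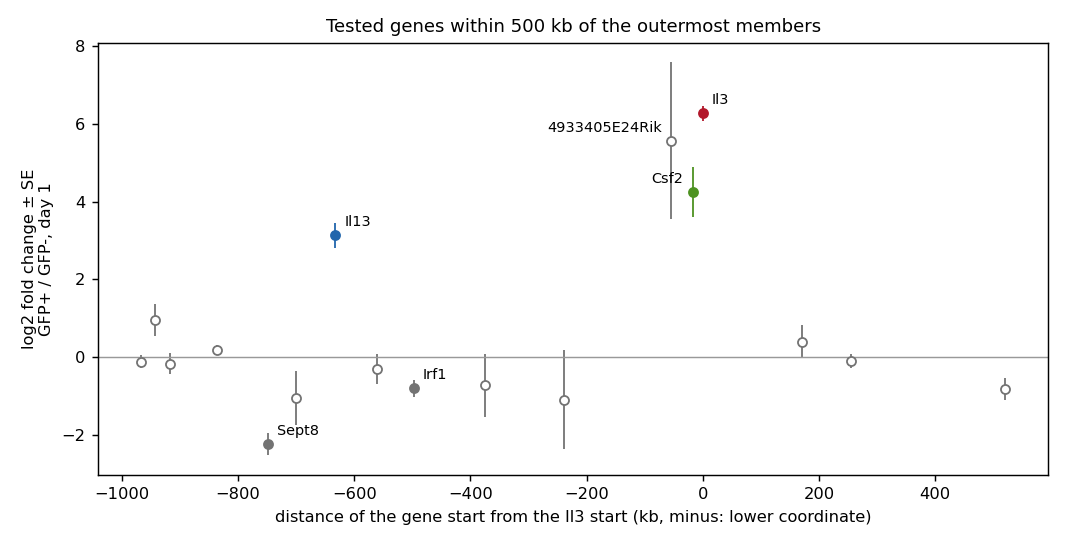
Log2 difference between GFP-positive and GFP-negative cells at day 1 with its SE (y axis) by distance of each gene's start from the Il3 start in kb (x axis); filled symbols passed an adjusted p of 0.05. Il3, Csf2 and Il13 stand above 3, and the called neighbours Sept8 and Irf1 stand below 0.

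Of 22 genes for the receptors of these cytokines and their signalling, all tested in the first experiment, 5 were higher and 0 lower in GFP-positive cells, where 5.59% of all genes were higher and 6.51% lower. The list's median log2 difference was 0.65 beside -0.03 over all genes. They were Il2rg, the common gamma chain (0.87 ± 0.09), Stat5a, a transcription factor downstream of these receptors (2.86 ± 0.44, at 48.6 against 6.1 CPM), Cish, an inhibitor induced by STAT5 (0.74 ± 0.15), the survival gene Bcl2l1 (0.71 ± 0.22) and, outside the rule of 4 named genes a list, Il4ra, the shared receptor chain for interleukins 4 and 13 (0.66 ± 0.21). The receptor chains for interleukin 3, GM-CSF and interleukin 5 were barely counted: mean levels were 2.0 CPM for Il3ra, 5.7 for Csf2ra, 4.6 for Csf2rb and 2.0 for Il5ra in GFP-positive cells, and none of them passed. Between the arms in GFP-positive cells 0 were higher and 2 lower in arm II (2.24% of all genes lower), Jak2 (-2.03 ± 0.45) and Bcl2l1 (-1.15 ± 0.31). At day 2, 0 of 21 were called between subsets by edgeR (0.368% of all genes; 4 at an unadjusted p under 0.05). In late against day 2 cells 1 was higher, Il4ra (2.06 ± 0.22), and 4 lower (3.33% of all genes higher and 4.89% lower), among them Stat5a (-2.32 ± 0.33) and the kinase gene Jak2 (-1.24 ± 0.18).

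Among 27 transcription factor genes known for this cluster or for T cell activation, 25 were tested in the first experiment, and 9 were higher and 1 lower in GFP-positive cells (5.59% of all genes higher and 6.51% lower). The list's median log2 difference was 0.47. NF-kappaB and NFAT genes were among them, with Nfkb2 at 1.72 ± 0.15, Nfkb1 at 1.36 ± 0.17, Nfatc1 at 1.79 ± 0.24 and Rel at 3.31 ± 0.43. Irf4, a factor induced by TCR signals and named outside the rule, was higher by 3.71 ± 0.51, at 45.1 against 3.6 CPM. Gata3, also outside it, the factor known for Il4, Il5 and Il13 in type 2 T cells, was at 50.9 against 59.2 CPM and did not pass (-0.16, adjusted p = 0.738). This mean covers arms that differed. Gata3 stood at 54.5 to 78.2 against 53.5 to 55.5 CPM in arm I. In arm II it stood at 31.7 to 38.9 against 60.3 to 67.5 CPM, where 0 genes of the list were called lower. Between the arms in GFP-positive cells 0 were higher and 3 lower in arm II (2.24% of all genes lower): Nfkb1 (-1.23 ± 0.24), Satb1 (-0.91 ± 0.21) and Chd4 (-0.81 ± 0.22). At day 2, 0 of 26 were called between subsets by edgeR (0.368% of all genes; 3 at an unadjusted p under 0.05), with Gata3 at 109 CPM in CD69+CD103+ cells and 95.9 CPM in the others. In late against day 2 cells, where 3.33% of all genes were higher and 4.89% lower, 6 were higher, led by the AP-1 genes Fosb (2.77 ± 0.17), Fosl2 (2.23 ± 0.15) and Fos (1.97 ± 0.16), and 5 lower, among them, outside the rule, Batf (-1.49 ± 0.26) and Irf4 (-1.13 ± 0.28). Among the late sets, Fosb stood at 419 and 629 CPM in set Q and at 1727 and 1980 CPM in set R, which held its highest value. The whole list summed to 6321 to 7616 CPM in set Q and 7092 to 9019 CPM in set P. It summed to 11290 to 12900 CPM in set R and 10260 to 11670 CPM in set S. A link of these levels to Il13 was not tested.

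The genes whose levels went most like each member over the 17 libraries of the first experiment were found by Pearson correlation of log2(CPM + 1), as a description over libraries that include the GFP sort. For Il3 they were Il2 (r = 0.977), Plagl1 (0.972), the chemokine gene Ccl3 (0.970), Il6 (0.962) and Ccl9 (0.960). Of these, Il6 was barely counted, with a mean of 0.54 and a highest value of 4.13 CPM, and Plagl1 was low, at 2.2 and 15.6 CPM. For Csf2 they were the chemokine genes Ccl1 (0.931) and Xcl1 (0.920), Penk (0.920), Nrp1 (0.915) and Nfkbib (0.907). For Il13 they were Tnfsf11 (0.893), Gpd2 (0.889), Tnfsf8 (0.866), H2-Ab1 (0.858) and Hnrnpa0 (0.857). Among members r was 0.895 for Il3 with Csf2, the close neighbours, 0.683 for Csf2 with Il13 and 0.611 for Il3 with Il13. Over the 16 libraries of the second experiment members stood on each other's lists: Il13 came first for Il3 (0.825), before Il2 (0.823), Col2a1 (0.811), Csf2 (0.807) and Cytl1 (0.786). Il13 also came first for Csf2 (0.864), with Xcl1 (0.864), Tnfsf11 (0.854), Ccl1 (0.853) and Thy1 (0.842). For Il13 they were Thy1 (0.887), Csf2 (0.864), Ybx1 (0.832), Hrh4 (0.832) and Il2 (0.831). Points share their libraries' depth and sort, and libraries of a set are not independent conditions.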

How the data were processed

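RNA of sorted mouse skin CD8 T cells was sequenced by CEL-seq2 in 33 libraries, and the authors deposited raw counts per gene and library in 1 table per experiment. The tools and build named are GRCm38, BWA 0.7.15, HTSeq and bcl2fastq 2.2, per the submitters' processing notes. No source used here states whether molecular barcodes were collapsed or strand was used. Columns were mapped to groups only as far as their headers match the labels.

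CPM were computed from the counts and each library's total. Genes were tested with edgeR 4.0.16 (R 4.3.3, limma 3.58.1; filterByExpr, TMM scaling, quasi-likelihood F test, 1 mean per set, all libraries of an experiment together), with Benjamini-Hochberg adjustment over all genes tested. SE is the log2 difference divided by the root of F. The fit was tested on simulated data. Alternatives were other size factors, no low-count filter, mitochondrial transcripts left out, a replicate block, DESeq2 1.42.0 and leaving out each library. Intervals and floors of 3 reads cover counting error only. Members and lists were chosen with earlier results of these data known. Named genes are the members, the 5 genes most like each, and up to 4 called genes by smallest p per list and comparison. Others are marked as outside that rule.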

Additional observations from a re-analysis of the deposited data

Results flagged for a closer look

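The difference between GFP-positive and GFP-negative cells in Il3 was itself different between the day 1 arms. It was 8.75 log2 units in arm I but 3.79 in the other, a change of -4.96 ± 0.33 (adjusted p = 7.26e-08 by edgeR). Both GFP-positive libraries of arm II lay below both of arm I, and the share of all genes that do so was not counted. Over the 8 fits that each left out 1 day 1 library it ran from -5.28 to -4.73.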

How the results depend on the processing

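Over the alternatives, 682 values of single genes were recomputed, of which 644 kept their direction and side of the threshold, 9 lost a call, 8 gained one and 21 changed sign. The count of called genes among the 3 was within 1.5 times the reported one in 142 of 142 values for the 13 planned comparisons and in 75 of 85 for the 10 added ones. A move between 2 and 3 called genes lies within that limit, so these counts could not register it. The Csf2 call moved in this way between GFP states in arm II and at day 2. With no filter, 2 genes were called in set Q against P, R against Q and S against Q. Leaving out 1 library gave 1 to 2 called genes for L against K, CD69+CD103+ against V and against W, and Q against P.

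None of the values that changed sign was called in the fit reported. Il3 between the arms in GFP-negative cells was -0.007 with no filter and -0.273 to 0.262 with 1 library left out. Il13 in GFP-negative cells of arm I against day 0 was -0.025 with the other size factors, -0.025 by DESeq2 and -0.389 to 0.335 with 1 library left out. With 1 library left out, Csf2 ran from -1.425 to 1.065 in GFP-negative cells of arm I against day 0, -0.979 to 0.141 in those of arm II, -0.962 to 0.552 over both arms and -1.512 to 0.926 between the arms. For set M against day 0, it gave -0.78 to 0.099 for Il3, -0.218 to 0.826 for Csf2 and -0.325 to 0.391 for Il13, and for M against K -0.611 to 0.286 for Il3. The cause was not tested.

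Replicate letters of the first experiment showed no shared difference between sets: over 28 pairs of sets, correlations of the A minus B differences ran from -0.097 to 0.05. Because the labels name no animals, this cannot tell whether cells with the same letter came from the same mice. With the letter as a replicate block, all 15 counts of called genes kept their value, Csf2 was 0.587 in GFP-negative day 1 cells against day 0, 0.211 in those of arm II alone and 4.85 in GFP-positive cells. No paired analysis was possible in the second experiment because its columns carry no letters.

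The number of all genes called moved more: by over 1.5 times in 12 of 23 comparisons with no filter, 18 of 22 by DESeq2, 4 of 15 with the block and 55 of 121 fits with 1 library left out. Over alternatives that kept every library, genes called within arm I, reported as 621, ran from 592 to 978. Within arm II, reported as 935, they ran from 817 to 1460. In the difference between arms, reported as 103, they ran from 85 to 310, and at day 2, reported as 45, from 45 to 173. Fits with 1 library left out called fewer genes than reported within either arm. DESeq2 gave no adjusted p for Il3 or Csf2 against subset W. By DESeq2 the share higher among called genes was 41.2% in place of 29.2% between the arms in GFP-positive cells, 68.9% in place of 86.7% at day 2 and 52.6% in place of 40.5% late against day 2. With 2 libraries in most sets, the spread rests on few samples.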
